A study of Mus musculus with 6 samples.

Results

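Aminoacyl-tRNA synthetases and the scaffold proteins that hold some of them together were followed in cultured mouse lung group 2 innate lymphoid cells (ILC2), tissue-resident lymphocytes that lack antigen receptors and release type 2 cytokines. The members were the rows with their gene symbols, 38 of the 23183 genes listed in each library: 20 cytosolic synthetases, 15 mitochondrial synthetases and 3 scaffold genes. The list does not hold every mouse synthetase gene. All 38 reached 1 FPKM (fragments normalised to transcript length and to library size) in at least 3 libraries and were tested.

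Primary lung ILC2 of WT genotype received DTA-1 (3 libraries), which activates the costimulatory receptor GITR, or the isotype control IgG2b (3 libraries) for 24 h, each together with IL-2, IL-7 and IL-33 at 10 ng/ml. Both groups therefore carried the same cytokine stimulation, and no unstimulated cells were analysed here. Groups were taken from the titles, since the treatment tags of replicates 2 and 3 count upwards instead (DTA-2 and DTA-3, IgG3b and IgG4b). The labels do not give strain, age, sex or the purity of the cells, nor whether libraries came from separate animals or cultures, so each p-value is about the spread among these libraries, and that spread may be technical. In bulk RNA, fewer cells of a type and less RNA per cell cannot be told apart.

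Each library was estimated to hold between 18400000 and 20100000 fragments. All 10 ILC2 markers were expressed, with Gata3 between 166 and 193 FPKM with DTA-1 and between 118 and 212 FPKM with the isotype. Log2 fold changes of 7 of the 10 lay below 0, and Klrg1 (10.5 to 48.1 FPKM with DTA-1, 79.8 to 114.9 FPKM with the isotype) and Il1rl1 (174 to 191 FPKM with DTA-1, 204 to 309.6 FPKM with the isotype) were lower with DTA-1 without overlap. Of 29 markers of 7 other kinds of cell, 6 reached the level needed for testing, and none was at 0 in every library. The summed level of the 29 was 49.5 to 64.2 FPKM with DTA-1 and 70.1 to 76.3 FPKM with the isotype. Pecam1 was the largest part, at 19.9 to 38.7 FPKM with DTA-1 and 31.5 to 43.8 FPKM with the isotype. Kit measured 5.52 to 11.9 FPKM with DTA-1 and 7.23 to 16.6 FPKM with the isotype. Cd79b lay at 2.93 to 6.46 FPKM with DTA-1 and 3.33 to 7.10 FPKM with the isotype. For Cd68 these ranges were 2.40 to 2.59 FPKM and 2.40 to 4.16 FPKM. Pecam1, Kit, Cd79b and Cd68 overlapped between groups. Epcam measured 1.09 to 1.85 FPKM with DTA-1 and 2.84 to 4.34 FPKM with the isotype, without overlap. Of the T cell genes, Cd3e lay under 1 FPKM in each library, while Cd3g measured 7.07 to 9.13 FPKM with DTA-1 and 9.35 to 10.2 FPKM with the isotype, without overlap. Genes of S phase and mitosis mostly stood apart between groups, though none passed the test over all genes described below. All 20 S phase genes and 15 of 20 mitosis genes were lower with DTA-1 without overlap, beside 10.5% of all genes tested. Relative to their average over the 6 libraries, 20 S phase genes lay at -0.36, -0.38 and -0.33 (log2) in DTA-1 replicates 1, 2 and 3, and at 0.63, 0.29 and 0.14 in isotype replicates 1, 2 and 3. The 20 mitosis genes lay at -0.27, -0.63 and -0.52 with DTA-1 and at 1.20, 0.17 and 0.051 with the isotype, in the same order. The part of these differences in the results below was not tested.

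Aminoacyl-tRNA synthetases attach each amino acid to its matching tRNA and so set the supply of substrate for the ribosome. The cytosol and the mitochondrion mostly use enzymes from separate nuclear genes, although Gars and Kars each serve both compartments and Eprs encodes a fused enzyme for glutamate and proline. In mammals several cytosolic enzymes assemble with the scaffold proteins AIMP1, AIMP2 and AIMP3 (the product of Eef1e1) into the multi-synthetase complex. Many cytosolic synthetase genes are known targets of ATF4, the transcription factor of the amino acid response, which is translated more when the kinase GCN2 senses uncharged tRNA.

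In these cells cytosolic synthetases were expressed at one order of magnitude and mitochondrial ones mostly lower. Mean levels over all 6 libraries ran from 39.6 FPKM (Cars) to 172 FPKM (Gars) among cytosolic genes, with a median of 71.9 FPKM. Mitochondrial genes had a median of 12.8 FPKM and ran from 1.87 FPKM (Ears2) to 29.0 FPKM (Iars2), with Lars2 apart from the rest at 1169.9 FPKM. The scaffold genes lay among the cytosolic enzymes, between 53.0 and 84.6 FPKM. Setting genes against each other assumes that the values are levels per transcript length, which is inferred. Effects of base composition and of overlapping genes were not removed from these levels.

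**Figure D1:**
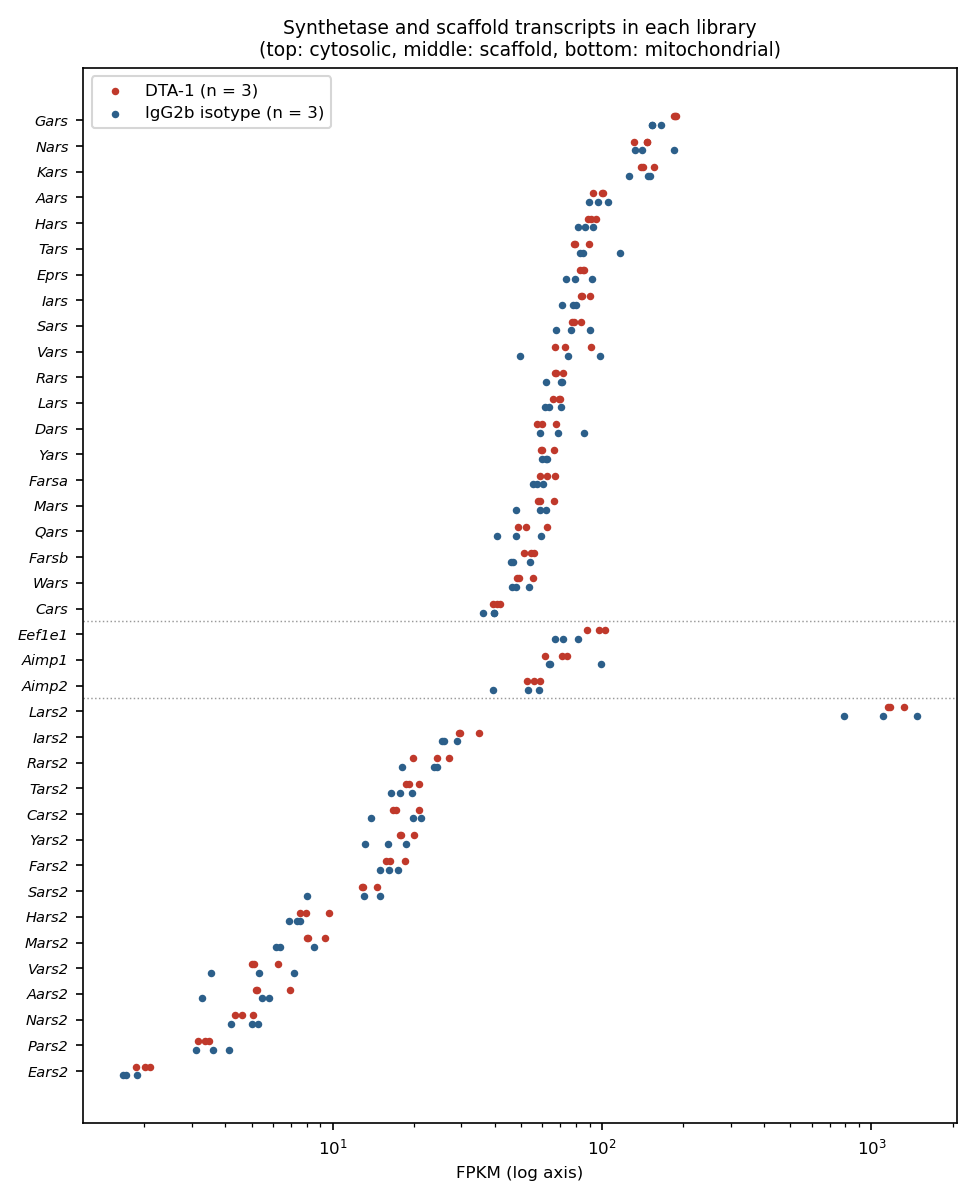
Level of each of the 38 genes in each library (horizontal log axis, FPKM; 1 point per library, DTA-1 in red above IgG2b isotype in blue), ordered by mean level within cytosolic, scaffold and mitochondrial genes. Cytosolic and scaffold genes lie in a band from Cars to Gars, mitochondrial genes lie to the left of it, and Lars2 alone lies far to the right.

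The members hold genes for both compartments for 15 amino acids, which makes 16 pairs, since Farsa and Farsb encode the subunits of the cytosolic phenylalanyl enzyme. In 15 of the 16 pairs the cytosolic transcript was higher in each of the 6 libraries, with ratios of means from 2.16 (Cars over Cars2) to 44.4 (Eprs over Ears2). Asparagine followed glutamate at 31.0-fold (Nars over Nars2) and proline came next at 23.9-fold (Eprs over Pars2). Isoleucine and arginine had narrow ones, at 2.80-fold and 2.98-fold. Leucine was the exception, with Lars at 0.057 of Lars2.

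Lars2 encodes the mitochondrial leucyl-tRNA synthetase (chromosome 9, 123366927 to 123462666, plus strand, GRCm38). It measured 1325, 1175 and 1150.2 FPKM with DTA-1, against 1479.7, 789.6 and 1101 FPKM with the isotype. The isotype libraries enclosed all DTA-1 values. Lars2 lay 40.3-fold above the next mitochondrial member, made up between 84.2% and 89.5% of the summed mitochondrial synthetase level, and ranked between 77 and 116 among all genes. The tables give 1 value per gene, so the stretch of the transcript that the fragments came from is not known. Without Lars2 the median mean level of the mitochondrial genes was 10.3 FPKM, and the median log2 fold change of the mitochondrial genes was 0.12 both with and without it.

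None of the 38 members passed the test between DTA-1 and isotype (limma on log2(FPKM + 1), Benjamini-Hochberg over 10501 genes, threshold 0.05), against 0.0381% of all genes tested in either direction, 0.0286% higher and 0.00952% lower. At an unadjusted p under 0.05, 2 members passed, both higher with DTA-1, where 6.22% of all genes did in that direction. Fold changes were small. The median log2 fold change was 0.064 for cytosolic genes, 0.12 for mitochondrial genes and 0.16 for scaffold genes, beside 0.014 for all genes tested, and no member reached 0.5 in either direction, against 8.09% of all genes. Each of the 38 intervals of 95% lay between -0.55 and 0.70 on the log2 scale, so a doubling or halving lay outside every one of them (limma, unadjusted, per gene).

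Most of the small differences lay on the same side. A log2 fold change above 0 was measured for 17 of 20 cytosolic, 13 of 15 mitochondrial and 2 of 3 scaffold genes, 32 of 38 in all, beside 52.6% of all genes tested. With GC and length trends removed the count was 27 of 38. It was 28 with libraries scaled to equal totals, with library quality weights, without DTA-1 replicate 1, without isotype replicate 2 or without isotype replicate 3. The members share libraries and were not tested as a list. DTA-1 replicate 1 held the highest value of 18 members and isotype replicate 2 the lowest value of 17.

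**Figure D2:**
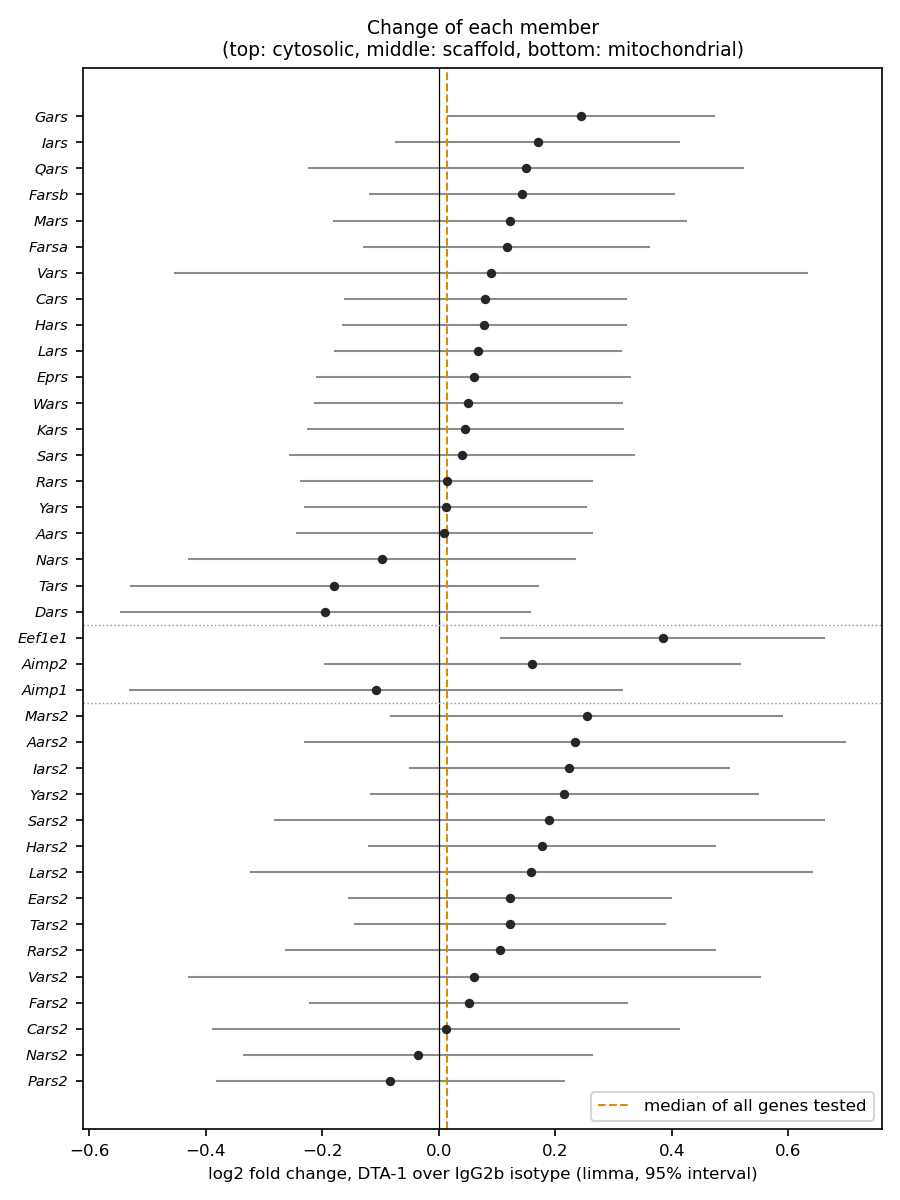
Log2 fold change of each gene, DTA-1 over IgG2b isotype, on the log2(FPKM + 1) scale (points) with the limma interval of 95% (bars), cytosolic genes at the top, scaffold genes in the middle and mitochondrial genes at the bottom; the dashed line is the median of all genes tested. Most points lie between 0 and 0.25, and only the intervals of Gars and Eef1e1 leave out 0.

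For 4 of the 38 members all DTA-1 libraries lay above all isotype libraries and for none below, where 11.2% of all genes tested were separated upwards and 10.5% downwards. These were the scaffold gene Eef1e1, the cytosolic genes Gars and Iars, and the mitochondrial gene Iars2. Their share of the members, 10.5%, was close to that of all genes. Of the settings run, 3 can reorder the libraries of a gene (both scalings and the removal of GC and length trends). Eef1e1, Gars and Iars stayed separated in these 3, and Iars2 overlapped with libraries scaled to equal totals.

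Eef1e1 (chromosome 13, 38644207 to 38659058, minus strand) encodes AIMP3, a small scaffold protein that binds methionyl-tRNA synthetase in the complex. It measured 102, 87.8 and 97.5 FPKM with DTA-1, against 71.9, 81.3 and 66.8 FPKM with the isotype. Every DTA-1 library lay above every isotype library. The log2 fold change of 0.38 ± 0.12 (SE) was the largest of the 38, with an interval of 0.11 to 0.66 and a limma adjusted p of 0.214. The adjusted p was 0.0542 with library quality weights and reached 0.513 without DTA-1 replicate 1.

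The other scaffold genes overlapped between groups. Aimp1, whose product also gives rise to a secreted cytokine, measured 71.1, 61.3 and 73.8 FPKM with DTA-1, against 64.2, 99.2 and 63.4 FPKM with the isotype. A single library, isotype replicate 2, was higher than all others, and the log2 fold change was -0.11 ± 0.18 (limma adjusted p = 0.854) with that library and 0.10 without it. Aimp2, which encodes the scaffold that anchors the complex, measured 58.7, 55.9 and 52.5 FPKM with DTA-1, against 58.4, 39.5 and 53.1 FPKM with the isotype. Here isotype replicate 2 was the lowest library, and the log2 fold change of 0.16 ± 0.16 (limma adjusted p = 0.720) was -0.0007 without it.

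Gars (chromosome 6, 55038007 to 55079500, plus strand) encodes glycyl-tRNA synthetase for both compartments and was the highest cytosolic member. It measured 188, 187 and 184 FPKM with DTA-1, against 153, 153 and 166 FPKM with the isotype. The DTA-1 libraries lay close together and all above the isotype libraries. The log2 fold change was 0.24 ± 0.10 (interval 0.01 to 0.47, limma adjusted p = 0.330).

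Iars (chromosome 13, 49682100 to 49734267, plus strand), the isoleucyl enzyme of the complex, measured 90.5, 83.8 and 84.1 FPKM with DTA-1, against 78.2, 80.0 and 71.2 FPKM with the isotype. Its mitochondrial counterpart Iars2 (chromosome 1, 185284726 to 185329396, minus strand) measured 34.9, 29.4 and 29.8 FPKM with DTA-1, against 28.9, 25.8 and 25.4 FPKM with the isotype. Both enzymes for isoleucine thus lay higher in each DTA-1 library, though the nearest libraries of Iars2, at 29.4 and 28.9 FPKM, almost met. Log2 fold changes were 0.17 ± 0.11 for Iars and 0.22 ± 0.12 for Iars2 (limma adjusted p = 0.541 and 0.464).

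**Figure D3:**
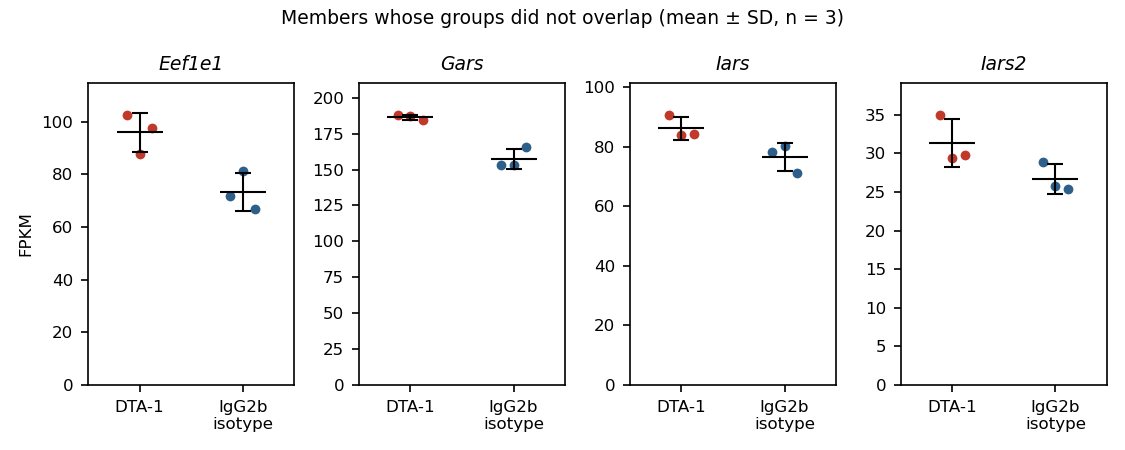
FPKM of Eef1e1, Gars, Iars and Iars2 in each library (points; DTA-1 left, IgG2b isotype right), with mean and SD (n = 3 per group) and vertical axes that start at 0. Each DTA-1 point lies above each isotype point, and none of the 4 genes passed the test over all genes.

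Other abundant cytosolic enzymes did not separate the groups. Nars, the asparaginyl enzyme, measured 147, 131 and 146 FPKM with DTA-1, against 141, 185 and 133 FPKM with the isotype, which gave -0.10 ± 0.14 in log2 terms (limma adjusted p = 0.830). Kars, the lysyl enzyme of both compartments, measured 156, 139 and 142 FPKM with DTA-1, against 151, 148 and 126 FPKM with the isotype, which gave 0.05 ± 0.12 in log2 terms (limma adjusted p = 0.909). In both genes each group's range reached into that of the other. Cars, the least abundant cytosolic member and the cysteinyl enzyme, measured 41.8, 39.3 and 40.9 FPKM with DTA-1, against 36.0, 39.7 and 39.6 FPKM with the isotype.

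Enzymes inside and outside the multi-synthetase complex had the same middle. The median log2 fold change was 0.064 for the 8 cytosolic enzymes of the complex (Dars, Eprs, Iars, Kars, Lars, Mars, Qars and Rars) and 0.065 for the 12 others. The lowest values in either group came from Dars, the aspartyl enzyme, at -0.19 ± 0.15, and Tars, the threonyl enzyme outside it, at -0.18 ± 0.15 (limma adjusted p = 0.651 and 0.678). Dars measured 57.3, 59.9 and 67.3 FPKM with DTA-1, against 68.7, 85.9 and 59.0 FPKM with the isotype. As with Nars and Aimp1, the highest value came from isotype replicate 2. Wars, the tryptophanyl enzyme known to be induced by interferon gamma in several cell types, averaged 51.1 ± 3.80 FPKM with DTA-1 and 49.3 ± 3.76 FPKM with the isotype (SD, n = 3 each).

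Among the other mitochondrial enzymes, Mars2 for methionine had the largest fold change. It measured 9.37, 8.08 and 8.05 FPKM with DTA-1, against 8.50, 6.18 and 6.37 FPKM with the isotype, which gave 0.25 ± 0.15 in log2 terms (limma adjusted p = 0.508). Isotype replicate 1 lay within the DTA-1 range. Aars2 and Yars2, for alanine and tyrosine, followed at 0.23 ± 0.20 and 0.22 ± 0.15 (limma adjusted p = 0.681 and 0.576). Rars2 for arginine, the third most abundant, measured 19.9, 24.4 and 27.0 FPKM with DTA-1, against 18.1, 24.3 and 23.8 FPKM with the isotype. Ears2 for glutamate, the least abundant, measured 2.09, 2.02 and 1.86 FPKM with DTA-1, against 1.70, 1.67 and 1.87 FPKM with the isotype. The lowest library of Ears2 corresponds to an estimated 62 fragments, whose counting error alone is 12.7%, against at most 2.41% for any cytosolic member.

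Set side by side in each library, the distance between the sets changed in a single sample. The mean log2(FPKM + 1) of cytosolic genes exceeded that of mitochondrial genes by 2.34, 2.34 and 2.38 in DTA-1 replicates 1, 2 and 3, against 2.31, 2.63 and 2.33 in isotype replicates 1, 2 and 3. Isotype replicate 2 stood off, while the other libraries lay between 2.31 and 2.38. Leaving out Lars2 gave 2.80, 2.79 and 2.83 with DTA-1, against 2.78, 3.06 and 2.78 with the isotype. In isotype replicate 2 the mitochondrial genes lay -0.24 from their mean over all libraries, while the cytosolic genes lay -0.0015 from theirs. It held the lowest value of 10 of the 15 mitochondrial genes. Without it the median log2 fold change of the mitochondrial genes was 0.0515, beside 0.0625 for the cytosolic genes. Without isotype replicate 1 these medians were 0.187 and 0.0465, and with all libraries 0.122 and 0.0636.

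The same library differed by base composition. The 10 members with the highest GC content (at least 53.9% of the transcript, among them Vars, Aars2, Sars2 and Vars2) lay on average -0.32 from their mean in isotype replicate 2. The 10 members with the lowest GC content (at most 47.0%, among them Dars, Tars and Eef1e1) lay 0.025 from theirs. Vars, the valyl enzyme and the richest in GC at 60.9%, measured 90.7, 73.0 and 66.8 FPKM with DTA-1, against 98.1, 49.8 and 74.9 FPKM with the isotype. Across the 38 members, which share the library, the deviation in isotype replicate 2 had a Pearson correlation of -0.53 with GC content, and across 10112 genes one of -0.51. DTA-1 replicate 3 had one of -0.60 over members and -0.18 over all genes, and isotype replicate 3 one of 0.72 over members and 0.29 over all genes. In the other 3 libraries it lay between 0.21 and 0.28 over members. Once GC and length trends were removed within libraries, the median log2 fold changes were 0.049 for cytosolic and 0.14 for mitochondrial genes.

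**Figure D4:**
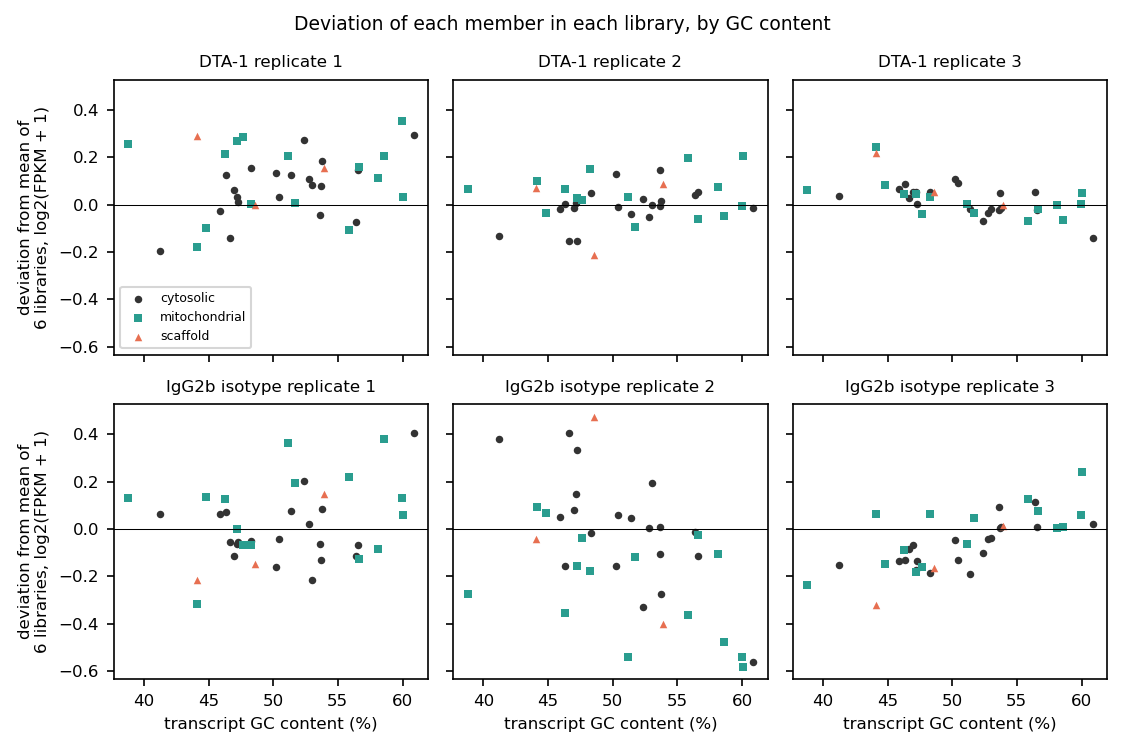
Deviation of each member from its mean over the 6 libraries (vertical axis, log2(FPKM + 1)) against the GC content of its longest coding transcript (horizontal axis, %), 1 panel per library, DTA-1 above IgG2b isotype. Points slope down in DTA-1 replicate 3 and isotype replicate 2 and up in isotype replicate 3, and are closest to 0 in DTA-1 replicates 2 and 3.

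Genes around the charging step also gave no call over all genes. Of 30 tested ATF4 and amino acid response genes, none passed in either direction, 5 had an unadjusted limma p under 0.05 (16.7%, close to the 14.0% of all genes tested), and the median log2 fold change was 0.14. Atf4 itself measured 333, 373 and 352 FPKM with DTA-1, against 261, 255 and 334 FPKM with the isotype, which gave 0.32 ± 0.13 in log2 terms (limma adjusted p = 0.332). Only isotype replicate 3 reached the DTA-1 range. Ppp1r15a, which encodes the phosphatase subunit that restores translation, averaged 15.1 ± 1.04 FPKM with DTA-1 and 9.42 ± 2.37 FPKM with the isotype (SD, n = 3 each), without overlap (limma adjusted p = 0.157). Atf5, a related transcription factor gene, averaged 46.6 ± 23.1 FPKM with DTA-1 and 25.3 ± 3.32 FPKM with the isotype (limma adjusted p = 0.304), with a wide spread in DTA-1 libraries. Trib3, a pseudokinase gene and ATF4 target, averaged 14.4 ± 3.38 FPKM with DTA-1 and 10.0 ± 1.79 FPKM with the isotype (limma adjusted p = 0.304). The stress gene Nupr1 went the other way, at 112 ± 10.2 FPKM with DTA-1 and 139 ± 2.50 FPKM with the isotype (limma adjusted p = 0.263). Like Ppp1r15a, the genes Atf5, Trib3 and Nupr1 did not overlap between groups, though the nearest libraries of Atf5, at 29.3 and 29.1 FPKM, almost met. In this list 4 genes were higher and 1 lower without overlap, beside 11.2% and 10.5% of all genes tested. Asns, the asparagine synthetase gene and a classic ATF4 target, averaged 103 ± 10.4 FPKM with DTA-1 and 96.4 ± 6.54 FPKM with the isotype.

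No sensor, charging partner or elongation factor on the lists passed over all genes. Among 7 tested kinases and sensors of uncharged tRNA and stress, none passed and the median log2 fold change was 0.067. Eif2ak4, the gene of GCN2, averaged 5.00 ± 0.690 FPKM with DTA-1 and 4.54 ± 0.859 FPKM with the isotype. For 9 partners of mitochondrial charging and further synthetase genes the median was 0.054. The 9 translation elongation factor genes had a median of 0.020, the 24 tRNA maturation and export genes 0.021, and the 19 RNA polymerase III genes 0.088. For the 7 genes of editing and release it was -0.067.

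Aarsd1, an editing factor that removes serine from tRNA for alanine, averaged 28.9 ± 2.20 FPKM with DTA-1 and 37.3 ± 3.62 FPKM with the isotype, without overlap (log2 fold change -0.35 ± 0.12, limma adjusted p = 0.249). Tsen15, a subunit of the tRNA splicing endonuclease, averaged 7.65 ± 0.532 FPKM with DTA-1 and 12.3 ± 2.26 FPKM with the isotype (log2 fold change -0.61 ± 0.15, limma adjusted p = 0.141). Tsen15 did not overlap between groups either. Of the 7 genes of editing and release, 1 was lower and 1 higher without overlap. Of the 24 genes of maturation and export, 1 was lower and 4 were higher. Over all genes tested, 10.5% were lower and 11.2% higher without overlap. Neither Aarsd1 nor Tsen15 passed over all genes, but with library quality weights the limma adjusted p of Tsen15 was 0.0314.

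The promoters of the members were searched for the C/EBP-ATF response element TGATGCAA, the sequence that ATF4 binds together with a C/EBP partner, because of the known place of synthetases among ATF4 targets. RefSeq windows (GRCm38.p6) of 300 bases, from 250 before to 50 after each gene's start, were matched for 29 of the 38 members. The element stood on either strand in 4 of the 29 members (13.8%), all cytosolic synthetases, beside 1.03% of all 27025 genes in the table. The matches of 3 of them are shown with 11 flanking bases on each side, in the direction of the gene, with the element or its reverse complement in capitals.
Tars, chr15:11399655-11399684 (minus strand): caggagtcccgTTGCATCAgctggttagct
Iars, chr13:49682126-49682155 (plus strand): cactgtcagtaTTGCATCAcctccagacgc
Yars, chr4:129189895-129189924 (plus strand): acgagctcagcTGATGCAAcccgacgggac
Distances run from the RefSeq start, which for each of the genes shown lies downstream of the GENCODE start. In Tars the element ended 7 bases before it. In Iars and Yars the element began 7 and 3 bases after it.

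Log2 fold changes were 0.17 for Iars, -0.18 for Tars and 0.01 for Yars, which was -0.02 with libraries scaled to equal totals. Tars measured 79.6, 78.8 and 89.7 FPKM with DTA-1, against 84.6, 117 and 82.9 FPKM with the isotype. The E-box CACGTG, which MYC and related factors bind, stood in 5 of the 29 members (Aars, Ears2, Farsb, Iars and Tars; 17.2%), beside 8.09% of all genes. The cAMP response element TGACGTCA stood in none of the 29, beside 2.03% of all genes. A match describes the letters of the window and does not show binding.

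Several members sit close to another gene. In GENCODE M21, 9 of the 38 (23.7%) start within 1000 bases of a protein-coding gene on the other strand that points away, or overlap its start by up to 200 bases, beside 7.91% of 21924 protein-coding genes. Hars and Hars2, the cytosolic and mitochondrial histidyl enzymes, form such a pair with each other. Hars averaged 91.6 ± 3.30 FPKM with DTA-1 and 86.8 ± 5.80 FPKM with the isotype, and Hars2 8.41 ± 1.15 FPKM with DTA-1 and 7.29 ± 0.366 FPKM with the isotype (SD, n = 3 each). Sars2 forms one with Mrps12, the gene of a mitochondrial ribosomal protein, and Rars2 with the replication gene Orc3. A protein-coding gene on the opposite strand overlaps 12 members, among them Mars with the stress gene Ddit3 and Aimp2 with the kinase gene Eif2ak1. The share of all genes with such an overlap was not computed. The use of strand in counting is not given in the sources used here, so fragments of such overlapping genes may not be told apart.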

How the data were processed

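RNA of 6 libraries (1.3 ug of total RNA each, NEBNext Ultra II Directional kit, per the labels' protocols) was sequenced, and the authors deposited 1 table per library with a symbol and 1 value for 23183 genes. The unit is not named, and FPKM is inferred from the deposited values, which are fractional. Depth was estimated from low values multiplied by transcript length, which were taken to stand for single fragments. They were picked within a preset range and steps were not checked. The depths and the counting errors drawn from them are thus approximate. TopHat and the build mm10 are named, per the submitters' processing notes; versions, quantifier, annotation and strand setting are not given in sources used here.

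The test was limma 3.58.1 (R 4.3.3; trend, robust, no covariate, 2-sided) on log2(FPKM + 1) for the 10501 genes that reached 1 FPKM in 3 or more libraries, with Benjamini-Hochberg adjustment over all of them. The procedure was tested on simulated data with a common spread for all genes and planted changes larger than that of any member. That run does not show whether changes as small as those of the members would be found. The added 1 shrinks fold changes of low genes. Lengths, GC content (available for 10112 of the tested genes) and positions came from GENCODE M21 (GRCm38, the assembly of mm10), using the longest coding transcript of each gene. Alternatives covered the pseudocount, the filter, scaling, a replicate block, library quality weights and leaving out each library; the removal of GC and length trends (mgcv 1.9.3) and the values without Lars2 were added after seeing the data. Members and lists were chosen with earlier results of these data known. Values per library are given for members whose groups did not overlap, the 3 most and the 1 least abundant cytosolic and mitochondrial genes and the scaffold genes, by rule; per related list, up to 4 genes with the smallest p could be named. Dars, Tars, Vars, Mars2, Aars2, Yars2, Wars, Hars, Hars2, Atf4, Asns and Eif2ak4 fall outside these rules and were chosen after their values were seen. Klrg1, Il1rl1, Gata3, Cd3e, Cd3g, Pecam1, Epcam, Kit, Cd79b and Cd68 were named likewise. Some items are not reported here. Figures were drawn with matplotlib 3.10.9.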

Additional observations from a re-analysis of the deposited data

How the results depend on the processing

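No synthetase or scaffold gene passed the limma test in any of the 15 settings run, the main one included; the smallest adjusted p was 0.0542, for Eef1e1 with library quality weights. Over all genes, 3 were called higher and 1 lower, and the count of higher genes was 1 with no filter on low values, 1 with GC and length trends removed and between 1 and 3 with 1 library left out. Scaling to equal totals called 2 lower. Library quality weights called 161 higher and 314 lower. The replicate block called 59 higher and 126 lower and left each member's log2 fold change as it was. Correlations of deviations within groups were 0.39, -0.10 and -0.13 between same-numbered libraries. Between libraries of unlike number they ran from -0.42 to 0.49. With 3 libraries per group these values cannot settle whether the numbers pair the samples. The causes were not tested.

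Without 1 library, between 5 and 9 members were higher and between 0 and 1 lower without overlap, since fewer samples have to be apart; over all genes between 13.2% and 19.1% were then separated upwards. In the same settings the mitochondrial median ran from 0.0515 to 0.187 and the scaffold median ran from 0.10 to 0.27. Of the 22 members named with values, 9 changed sign when 1 library was left out: log2 fold changes ran from -0.0377 to 0.0949 for Kars, -0.189 to 0.0461 for Nars, -0.0719 to 0.381 for Lars2, -0.0255 to 0.2225 for Rars2, -0.217 to 0.102 for Aimp1, -0.0007 to 0.2745 for Aimp2, -0.168 to 0.315 for Vars, -0.0082 to 0.111 for Wars and -0.0392 to 0.0423 for Yars. Gata3 ran from -0.0723 to 0.3495. With library quality weights Vars was at -0.0474 and Yars at -0.0127, with GC and length trends removed -0.0149 and -0.0049, and with equal totals Yars was at -0.0203. Quality weights also gave Tsen15 and Il1rl1 an adjusted p of 0.0314 and 0.0292. Over all members and alternatives, 18 of 38 changed sign at least once, none with a log2 fold change above 0.19 in size. With 3 libraries per group, the median SE of the members was 0.13 on the log2 scale.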
